A study of Rattus norvegicus with 233 samples.

Results

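Single hepatocytes taken from rats on an ethanol diet were compared with single hepatocytes from rats on the control diet, both 24 h after partial hepatectomy. The 109 cells were chosen by the diet and time in their labels, 54 on the ethanol diet and 55 on the control diet, out of 233 cells in the whole series. All 84 real-time PCR assays of the panel were used. The other cells of the series, 69 control and 55 ethanol, were taken at 0 h after resection and appear here only where they show how the 24 h difference between diets compares with the one at 0 h.

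The rats of both diets were on the Lieber-De Carli regimen, a liquid-diet feeding scheme for long-term alcohol studies. The labels call the control diet carbohydrate. The resected animals at 24 h are abbreviated PHx in the design text. The sources used here give no strain, age, sex or number of animals, and no label ties a cell to an animal. Each diet was therefore treated as 1 sample, every difference below lacks a replicate check, and no test was made. An effect of diet, a difference between animals and a difference between runs cannot be told apart in this design.

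The liver restores its mass after resection mainly through division of the hepatocytes that remain. These cells are quiescent in the intact organ, are primed by cytokines, and enter the cell cycle in response to growth factors while keeping up the metabolic work of the liver. Hepatocytes also carry out most ethanol oxidation, and long-term ethanol intake is known to slow liver regeneration in rodents. The comparison addresses how the diet groups differed while this response was under way.

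Each cell was cut from tissue by laser capture microdissection, lysed, reverse-transcribed and pre-amplified for 22 cycles with the primers of the panel, and then measured over 30 cycles on a microfluidic array. The readout is the cycle threshold (Ct), the cycle at which the product is detected, where a lower Ct means more template. A relative level was computed for each assay in each cell: the cell's median Ct over 28 common assays minus the Ct of the assay. It is on a log2 scale, and higher means more transcript relative to the rest of that cell. Means and SDs leave out cells without a value, and the SD describes the spread between cells. Transcripts are given by assay number, because the sources used here do not pair the numbers with genes. For the same reason the hepatocyte label could not be checked against marker genes, and markers of other liver cells could not be counted.

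Cells of both diets gave similar amounts of signal at 24 h. The number of assays with a value in a cell was lowest at 35, with a median of 71 and a highest of 80 on the control diet. On the ethanol diet it ran from 31 through a median of 71 to 82. The share of entries without a value was 19.3% (893 of 4620) in control and 18.7% (848 of 4536) in ethanol cells. The common-assay median Ct averaged 13.9 ± 2.22 (SD, n = 55) among control cells, against 13.3 ± 1.86 (SD, n = 54) among ethanol cells, so unscaled Ct values were somewhat lower on the ethanol diet. This Ct was above 17 in 6 control and 3 ethanol cells. Over the cells of a diet, more assays were detected where the common-assay Ct was lower. Spearman's rho was -0.78 in control and -0.81 in ethanol cells. A missing common assay was entered in that median as a high Ct, so the relation is partly built in by this rule. The size of the built-in part was not tested.

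A group of 5 assays was missing together in some cells of both diets, so that these cells stood apart from the others. A05, A11, A29, A56 and A66 all lacked a value in 12 of 55 control cells (21.8%, exact Clopper-Pearson 95% interval 11.8% to 35.0%) and in 15 of 54 ethanol cells (27.8%, 16.5% to 41.6%). The intervals cover counting error over cells only, here and below. Most of the cells lacking all 5 had neighbouring numbers in their titles, such as control cells 13 to 15 and ethanol cells 15 to 19. The intervals treat cells as independent, so they may be too narrow here. What the order of the numbers stands for is not given. Among the other cells A11 had a value in all 43 control and all 39 ethanol cells. Many of the results below are also given without these cells, and some within them.

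Mean relative levels were close on the 2 diets. No assay was at least 1 log2 unit higher in ethanol cells (0 of 84, 0%), and 5 of 84 (5.95%) were at least 1 unit lower. The median difference, ethanol minus control, was -0.03. It was above 0 for 39 assays and below 0 for 45, and 58 assays differed by less than 0.5. Subtracting from each cell's common-assay Ct draws these differences towards 0, so the even split is partly set by the scaling. Without scaling, 68 differences were above 0 and 16 below. The ordering of the assays by mean level was largely shared, with a Spearman's rho of 0.96 between diets over the 84 assays. That value describes assays measured with the same primers in both groups, so primer efficiency contributes to it.

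**Figure D1:**
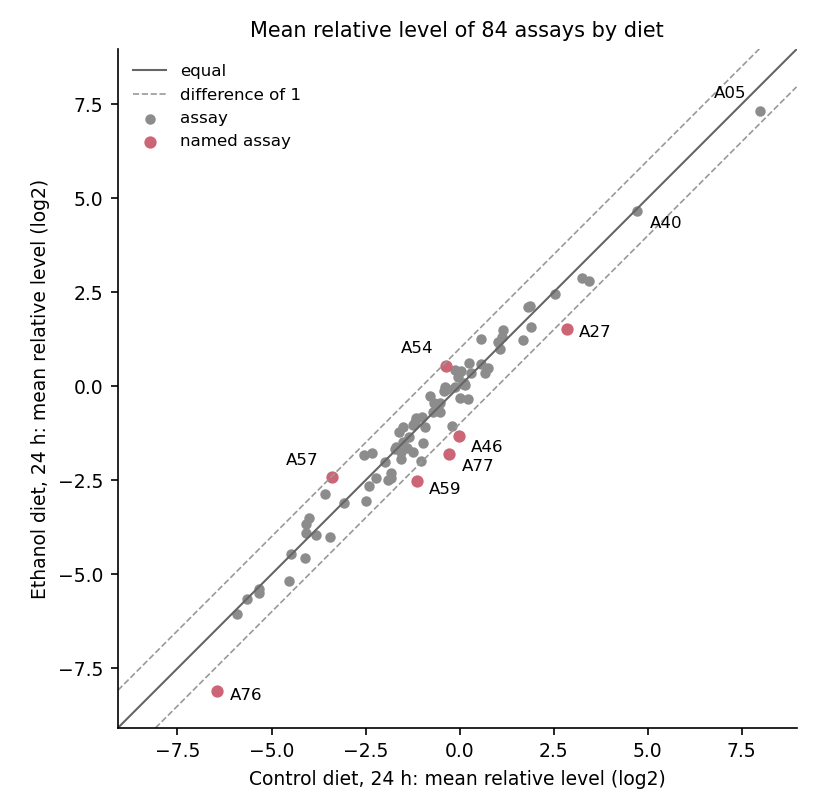
Mean relative level (log2) of each of the 84 assays in control cells (horizontal axis) and ethanol cells (vertical axis) at 24 h, with the line of equality and dashed lines at a difference of 1. A76, A77, A59, A27 and A46 lie below the lower dashed line and no assay lies above the upper one.

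This split moved with the scaling. Without any scaling, 12 assays were at least 1 unit higher in ethanol cells and 1 was lower, around a median of 0.56. With the 51 common assays of the 24 h groups in place of the 28, these numbers were 2 and 3 and the median was 0.17, and with every assay of the cell it was 1 and 5. With a missing value entered at Ct 30, which mixes the share of cells with the level, 12 were higher and 16 lower. Without the cells that lacked the 5 assays, 0 of 82 assays were higher and 5 lower, 4 of them among the 5 found over all cells. Within the cells that lacked them, 1 of 52 was higher and 10 lower, 2 of them among those 5.

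Of the assays with lower means in ethanol cells, A76 had the largest difference, -1.66. Its relative level ran from -12.05 through a median of -6.23 to -3.04 over the control cells with a value, and from -12.12 through -8.15 to -1.91 over the ethanol cells. The ranges overlapped almost entirely, and the highest single value was in an ethanol cell. That cell had the fewest assays with a value (31) and a common-assay Ct of 20.4. Its relative levels are counted from that high Ct. The means were -6.45 ± 2.59 (SD, n = 20 cells) and -8.12 ± 2.67 (SD, n = 22 cells). This was the lowest mean level of the panel on both diets. A76 was detected late, with a median Ct of 20.7 in control and 22.2 in ethanol cells. The difference was -2.73 without the cells that lacked the 5 assays and -0.72 with the 51 common assays. It was -0.78 with missing values at Ct 30. With values above Ct 20 missing, too few cells had a value for A76 to be compared.

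For A77 the lowest, median and highest control values were -8.01, -0.34 and 7.60, against -11.14, -0.86 and 7.19 in ethanol cells. The medians lay much closer than the means, which were -0.28 ± 3.05 (SD, n = 33 cells) and -1.80 ± 3.65 (SD, n = 33 cells), a difference of -1.52. The ethanol range reached lower than the control range, and a comparison of medians gave -0.53. The highest control and ethanol values came from cells with a common-assay Ct of 20.7 and 20.4. The difference of means was -0.99 without the cell farthest from the median in each group. Without cells above a common-assay Ct of 17 it was -1.03. It was -0.79 without the cells lacking the 5 assays and -2.42 within them. It was also under 1 in size without scaling (-0.69), with missing values at Ct 30 (-0.82) and with values above Ct 20 missing (-0.97).

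The other 3 assays beyond the size limit, A59, A27 and A46, are named after their values were seen, because the count was small. A59 ran from -8.70 through -0.62 to 2.03 in control cells and from -8.13 through -1.97 to -0.25 in ethanol cells. No ethanol cell had a value above 0 for it, while some control cells did. Its means were -1.14 ± 1.97 (SD, n = 38 cells) and -2.53 ± 1.96 (SD, n = 33 cells), a difference of -1.39. It was -1.27 without the cells lacking the 5 assays and -0.66 without scaling, which is under the size limit.

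A27 was among the assays with high levels and had a value in nearly every cell, 52 of 55 control and 47 of 54 ethanol cells. Its control values ran from -1.60 through 3.11 to 5.84 and its ethanol values from -7.35 through 1.88 to 3.71. The upper part of the control range held no ethanol cell. The means were 2.84 ± 1.70 (SD, n = 52 cells) and 1.53 ± 1.77 (SD, n = 47 cells), a difference of -1.32. The share of the variance over cells that lay between the diet groups was 12.8% for A27, with A54 close to it at 12.6%, against a median of 1.11% over the 84 assays. The difference of A27 was -1.65 without the cells lacking the 5 assays and -0.10 within them, and without scaling it was -0.79 over all cells.

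A46 had a value in all 55 control cells and in 53 of 54 ethanol cells. It ran from -5.71 through 0.41 to 4.50 in control cells and from -6.74 through -1.28 to 5.97 in ethanol cells. The highest value was again in an ethanol cell, the same one as for A76. The highest control value also came from a cell with a high common-assay Ct (20.7). The means were -0.02 ± 2.14 (SD, n = 55 cells) and -1.32 ± 2.70 (SD, n = 53 cells), a difference of -1.30. It was -1.34 without the cells lacking the 5 assays and -1.24 within them. It was under the size limit without scaling (-0.72) and with the 51 common assays (-0.96). The ethanol values were not spread evenly over the cell numbers in the titles. Up to ethanol cell 36 the highest value was 0.03, while most values from cell 37 on were above 0. What the order of the numbers stands for is not given, and this pattern was not tested.

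In the other direction the largest differences lay close to the size limit and on either side of it by setting. A57 had a value in few cells, and its mean was -3.40 ± 1.65 (SD, n = 15) among control cells, against -2.42 ± 1.69 (SD, n = 24) among ethanol cells, a difference of 0.99. Its values ran from -8.35 through -3.11 to -1.43 and from -7.45 through -1.96 to 0.50 in the same order. The difference of A57 passed the limit without scaling (1.47), with the 51 common assays (1.00), with every assay of the cell (1.04), with medians (1.15) and with missing values at Ct 30 (2.43). A54 was measured in nearly all cells, at -0.36 ± 1.49 (SD, n = 54 cells) and 0.54 ± 0.76 (SD, n = 53 cells), a difference of 0.89. Its control values ran from -6.76 through -0.31 to 4.47, and its ethanol values lay within them, from -1.67 through 0.59 to 1.95. The lowest and highest control values came from cells with a common-assay Ct of 16.1 and 19.9. The quartiles of A54 were closer in spread, at -0.78 and 0.35 in control and 0.12 and 0.98 in ethanol cells. The difference of A54 was 0.89 without the cells lacking the 5 assays and 0.88 within them. It passed the limit without scaling (1.45) and with the 51 common assays (1.08). If 1 ethanol and 1 control cell with a value are paired in every possible way, the ethanol cell was the higher one in 76.2% of pairs for A54, the highest share of the panel, and in 26.3% for A27, the lowest, around a median of 49.4%.

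**Figure D2:**
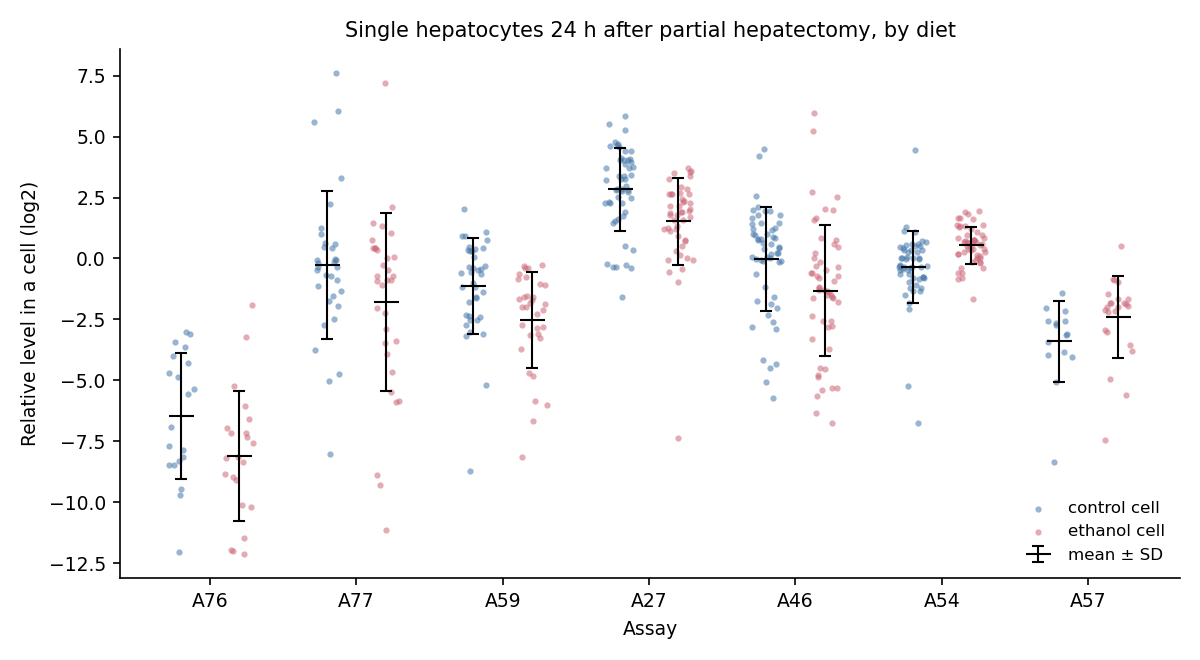
Relative level (log2, vertical axis) in each cell with a value for the 5 assays lower by at least 1 in ethanol cells and the 2 with the largest differences in the other direction; points are cells by diet, bars are the mean ± SD over cells. The groups overlap for each of the 7 assays, and the control values of A54 reach farther out than its ethanol values, mainly through a few cells.

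The cell ranges of the diets overlapped for all 84 assays. The difference of means was at most 0.76 of the SD between cells within a diet, a value reached by A27, with A54 at 0.75. Among assays detected in 50% or more of the cells on each diet, A05 and A40 had the highest mean levels, at 7.99 ± 1.05 (SD, n = 42 cells) and 4.72 ± 1.20 in control cells and 7.32 ± 1.54 (SD, n = 39 cells) and 4.65 ± 1.02 in ethanol cells. A70 and A63 had the lowest, at -5.91 ± 3.74 and -5.34 ± 2.83 in control cells and -6.06 ± 3.49 and -5.50 ± 2.54 in ethanol cells. The ends of the panel were thus held by the same assays on both diets, and they differed between diets by less than the spread between cells. Levels of different assays also carry their primers' efficiency and transcript length, so this order is not one of transcript number.

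Shares of cells with a value were alike on the 2 diets for most assays. The share was at least 20 percentage points higher in ethanol cells for 1 of 84 assays (1.19%) and at least 20 points lower for 0 of 84 (0%). It was higher for 36 assays, lower for 46 and equal for 2, and 73 assays differed by less than 10 points. The shares of the assays had a Spearman's rho of 0.89 between diets over the 84 assays. Every cell had a value for 8 assays on the control diet and for 3 on the ethanol diet, and fewer than 50% of cells had one for 7 and 5 assays.

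A18 was the assay past the limit. Among control cells 36.4% gave a value (20 of 55, Clopper-Pearson interval 23.8% to 50.4%), and among ethanol cells 57.4% did (31 of 54, 43.2% to 70.8%), a difference of 21.0 points. The exact intervals overlapped, which does not show that the shares were equal. The difference was 28.5 points without the cells that lacked the 5 assays and -6.67 points within them. The latter were only 12 control and 15 ethanol cells, so no change of direction can be read from that value. With values above Ct 20 missing it was 13.5 points, under the limit. Where A18 had a value, its mean level was -3.45 ± 2.15 (SD, n = 20) among control cells, against -4.02 ± 2.91 (SD, n = 31) among ethanol cells. A larger share of ethanol cells thus went with a mean level that was 0.57 lower among the cells that had one, a difference within the spread between cells.

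A06 lay just under the limit, with 61.8% of control cells (34 of 55, 47.7% to 74.6%) and 81.5% of ethanol cells (44 of 54, 68.6% to 90.7%), a difference of 19.7 points. It was past the limit without the cells lacking the 5 assays (20.9 points) and with values above Ct 20 missing (21.4 points), and it was 8.33 points within the cells lacking the 5. The largest differences the other way were for A01, with 85.5% (47 of 55, 73.3% to 93.5%) and 72.2% (39 of 54, 58.4% to 83.5%), and for A03, with 89.1% (49 of 55, 77.8% to 95.9%) and 77.8% (42 of 54, 64.4% to 88.0%). These were -13.2 and -11.3 points. Without the cells lacking the 5 assays they were -12.2 and -11.4 points, and within those cells -20 and -11.7 points. The intervals of the diets overlapped for each of these assays. They treat cells as independent, and their overlap is no test of a diet difference.

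**Figure D3:**
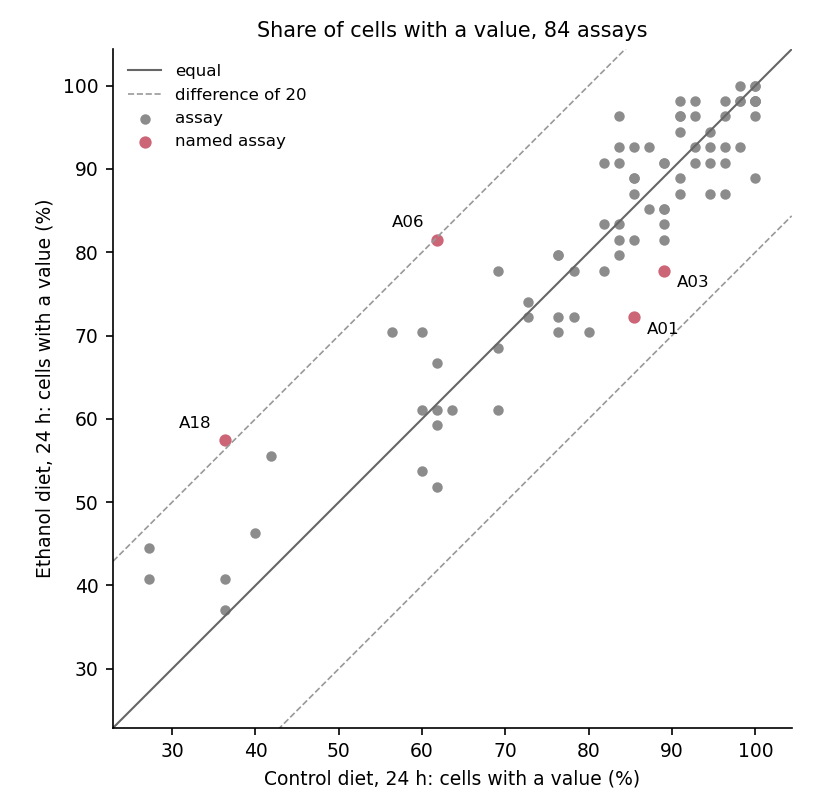
Share of cells with a value (%) for each of the 84 assays in control cells (horizontal axis) and ethanol cells (vertical axis) at 24 h, with the line of equality and dashed lines at 20 percentage points. A18 is the 1 assay beyond the dashed lines, and A06 sits next to the upper one.

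Missing values of other assays also fell in the same cells, on both diets. The phi coefficient, a correlation of having a value over cells, had a median of 0.15 in control and 0.17 in ethanol cells over 1265 assay pairs outside the group of 5. It was 0.5 or more for 49 pairs in control and 53 in ethanol cells, and for 10 in both. A31 and A83 had the highest phi shared by both diets, 0.60 in control and 0.68 in ethanol cells, followed by A16 and A22 at 0.56 and 0.59. Within the group of 5 the lowest phi was 0.64 in control and 0.78 in ethanol cells. Single pairs outside the group reached higher than that, A16 with A84 at 0.79 in control and A02 with A78 at 0.83 in ethanol cells. Cells with few values enter every such pair, and the part of signal per cell in these values was not tested.

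Spread between cells was of similar size on the 2 diets. The median SD over the 84 assays was 1.66 in control and 1.63 in ethanol cells. An SD of 2 or more was found for 31 assays in each diet, 26 of them shared. Ethanol cells had an SD at least 0.5 higher for 8 assays (9.52%) and at least 0.5 lower for 15 (17.9%), and counting differences of any size 34 were higher and 50 lower. The median difference was -0.10. Some of the lower SDs were not separate observations. A16, A24, A32, A37 and A82 were among the 15, and their highest control values came from the same cell, control cell 43. Those values were 9.92, 8.27, 10.8, 9.00 and 9.62 in that order. The counts without that cell alone were not computed. Assays with low mean levels had the larger SDs, with a Spearman's rho between mean and SD over assays of -0.51 in control and -0.65 in ethanol cells.

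The direction of the SD differences turned with the scaling. With the 51 common assays of the 24 h groups, 35 assays had an SD higher by at least 0.5 on the ethanol diet and 7 had a lower one. Without scaling the numbers were 7 and 23, where the common-assay Ct itself had the larger SD in control cells. Without the farthest cell of each group for each assay, 4 were higher and 11 lower, and 9 of the original 15 lower assays were among those 11. Without the cells lacking the 5 assays the numbers were 13 and 15, and within those cells 4 and 20. No prevailing direction of spread can be given from these cells. A missing common assay was entered as a high Ct, a rule that bears most on cells with few values. Ethanol cells 42 and 48 had the fewest, 31 and 34 assays, against 35 in the lowest control cell. Their part in the counts with the 51 common assays was not tested.

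A21 had the largest SD difference. Its SD was 0.82 (n = 23 cells) in control and 2.09 (n = 30 cells) in ethanol cells, a difference of 1.27, and the control value was the lowest SD of that diet. The control cells lay between -2.79 and 1.08 with a median of -1.24, and the ethanol cells between -11.67 and 0.25 with a median of -1.70. Without the farthest cell of each group the difference was 0.28, under the limit. It was also under it with spread taken from the quartiles (0.26) and with values above Ct 20 missing (0.13). Without the cells lacking the 5 assays it was 1.54.

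A43 had an SD of 1.26 (n = 44 cells) in control and 2.42 (n = 38 cells) in ethanol cells, a difference of 1.16, while its means of -1.97 and -2.02 were nearly equal. Its control cells lay between -4.93 and 2.01 and its ethanol cells between -10.61 and 1.66. The quartiles differed too, at -2.58 and -1.55 in control and -2.99 and -0.24 in ethanol cells. The difference was 0.87 without the farthest cells and 1.32 without the cells lacking the 5 assays. Over the alternatives run for A43 it lay between 0.76 and 1.42.

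A16 had the largest SD difference the other way, 2.31 (n = 46 cells) in control and 1.18 (n = 44 cells) in ethanol cells, which is -1.13. Its control values ran from -8.43 through a median of -1.60 to 9.92, and its ethanol values from -4.88 through -1.30 to -0.06. The highest control value came from 1 cell with a Ct of 3.40, against a median Ct of 14.3 for this assay. Without the farthest cells the difference was -0.49, and with spread taken from the quartiles it was 0.052. Within the cells lacking the 5 assays it was -0.041, and without them it was -1.32.

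A06 had the highest SD of the control diet, 3.94 (n = 34 cells), against 3.11 (n = 44 cells) in ethanol cells, a difference of -0.82. Its control values ran from -10.64 through -1.78 to 8.49 and its ethanol values from -8.20 through -1.62 to 8.06. This assay spanned a wide range on both diets, and its SD was lower by 0.78 in ethanol cells without the farthest cells. With the 51 common assays the difference had the opposite sign, 0.65, and with spread taken from the quartiles it was -0.17. It was -0.83 without the cells lacking the 5 assays and -0.53 within them.

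**Figure D4:**
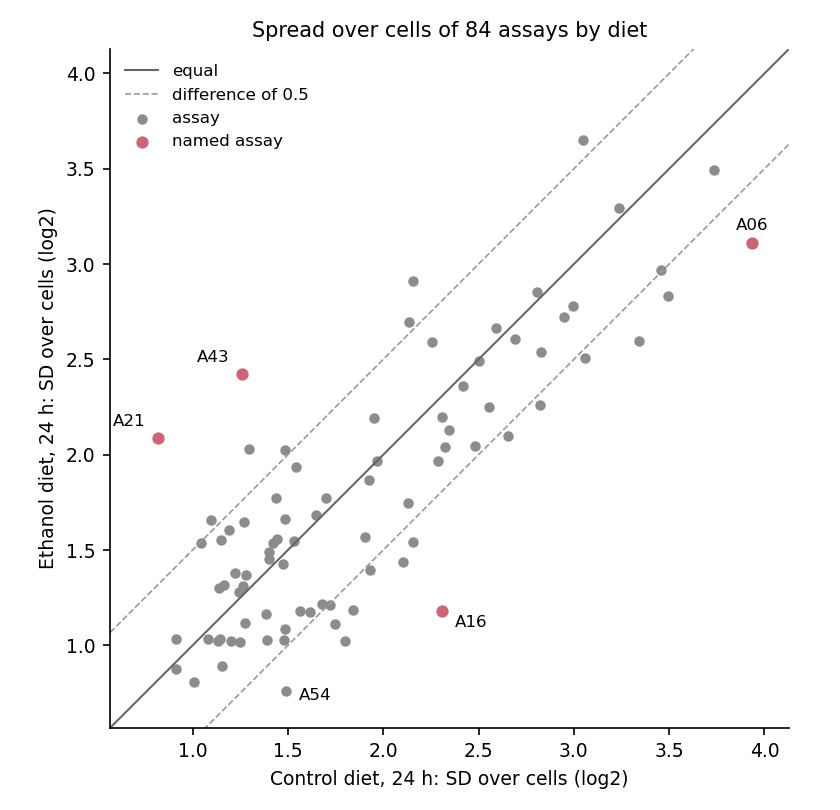
SD over cells (log2) of the relative level of each of the 84 assays in control cells (horizontal axis) and ethanol cells (vertical axis) at 24 h, with the line of equality and dashed lines at a difference of 0.5. A21 and A43 lie farthest above the line and A16 farthest below it.

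Co-variation of assays was described by Spearman's rho over the cells with a value for both assays, for the 3066 assay pairs with at least 20 such cells on each diet. These correlations are descriptions: cells of 1 group share animals and runs, and all assays of a cell share its lysate and its scaling. The median rho was 0.07 in control and 0.05 in ethanol cells. It was 0.5 or more for 149 pairs (4.86%) in control and 137 pairs (4.47%) in ethanol cells, and 40 pairs (1.3%) reached it on both diets, 26.8% of the control pairs and 29.2% of the ethanol pairs. Values of -0.5 or less were fewer, 7 pairs (0.228%) in control and 27 (0.881%) in ethanol cells, and none was shared (0 pairs). With so few such pairs, the lack of overlap says little about the diets. Across pairs, the rho of one diet and that of the other had a Spearman's rho of 0.43.

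Unscaled Ct values co-varied more. Their median rho was 0.31 in control and 0.38 in ethanol cells, and 702 and 1023 pairs were at 0.5 or more. Of the 40 shared pairs, 23 stayed at 0.5 or more on both diets without the cells lacking the 5 assays. Of the same 40, 15 stayed at 0.5 or more on both diets without scaling and 13 did so after the common-assay Ct was partialled out, an alternative chosen after seeing the data. With missing values at Ct 30 the number was 11, and without cells above a common-assay Ct of 17 it was 17.

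A15 and A74 co-varied most closely in control cells, at a rho of 0.84 (n = 54 cells), and at 0.79 (n = 54 cells) in ethanol cells. Both assays had a value in nearly every cell, with means of 3.45 and 1.68 in control and 2.80 and 1.22 in ethanol cells. A07 and A26 had the highest rho in ethanol cells, 0.82 (n = 44 cells), and 0.76 (n = 47 cells) in control cells. A26 and A51 were next in ethanol cells at 0.80 (n = 45 cells), with 0.57 (n = 45 cells) in control cells. A05 and A82 were next in control cells at 0.78 (n = 39 cells), with 0.64 (n = 32 cells) in ethanol cells.

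Of the 40 shared pairs, 4 were at 0.5 or more on both diets under each of the 11 alternatives run for pairs. They were A07 with A26, A15 with A74, A26 with A62, and A58 with A68. A26 and A62 had a rho of 0.73 in control and 0.67 in ethanol cells, and A58 and A68 had 0.74 and 0.68. The lowest value of A15 with A74 over the alternatives was 0.69 in control and 0.66 in ethanol cells, which left this pair closely tied under all of them.

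The shared pairs drew on few assays. They involved 25 of the 84, and 28 of the 40 contained at least 1 of A06, A07, A15, A23, A26, A58 and A62. The share of all 3066 compared pairs that contain at least 1 of them was not computed. These 7 assays, picked out after their values were seen, were those whose Ct did not follow the cell's common-assay Ct: their rho with it was under 0.2 on both diets, against a median over the 84 assays of 0.58 in control and 0.61 in ethanol cells. Subtracting such a Ct from the common-assay Ct gives all 7 a common term. The part of this term in the shared pairs was measured only through the alternatives. Of the 21 pairs among the 7 assays, 12 were shared, against 40 of all 3066 pairs (1.3%). Over these 21 pairs the median rho was 0.57 in control and 0.53 in ethanol cells, and it was 0.39 and 0.28 without scaling. All 21 pairs were positive with scaling on both diets, down to 0.32 in control and 0.14 in ethanol cells.

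The assays with the most partners were shared only in part. A07 and A26 each had 14 partners at 0.5 or more in control cells. In ethanol cells A09 had the most, 11, and A05, A26, A40, A51 and A61 each had 9. A09 had 1 such partner in control cells, and A07 had 6 in ethanol cells.

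With scaling, some pairs had a rho of opposite sign on the 2 diets. A31 and A66 had a rho of 0.62 (n = 29 cells) in control and -0.32 (n = 30 cells) in ethanol cells. A31 and A34 had 0.48 (n = 38 cells) and -0.34 (n = 42 cells). In the other direction A48 and A75 had -0.37 (n = 20 cells) and 0.60 (n = 23 cells), and A39 and A48 had -0.26 (n = 20 cells) and 0.63 (n = 22 cells). Without scaling the signs were alike for 3 of these 4 pairs. The unscaled rho was 0.58 in control and 0.28 in ethanol cells for A31 and A66, 0.51 and 0.35 for A31 and A34, 0.15 and 0.80 for A48 and A75, and -0.024 and 0.58 for A39 and A48. These are the extremes of 3066 pairs, several rest on little more than the minimum of 20 cells, and no difference of rho was tested.

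The pairs with the lowest rho on 1 diet, picked as extremes of 3066 pairs, had weaker values on the other. A35 and A63 had -0.61 (n = 31 cells) in control cells against -0.10 (n = 35 cells) in ethanol cells, and A09 and A80 had -0.60 (n = 30 cells) against -0.14 (n = 27 cells). In ethanol cells A09 and A19 had -0.70 (n = 31 cells) against 0.02 (n = 31 cells) in control cells, and A12 and A56 had -0.68 (n = 28 cells) against -0.12 (n = 35 cells). None of the 4 low values was reached without scaling. The unscaled rho was -0.16 for A35 and A63 and -0.022 for A09 and A80 in control cells, and 0.032 for A09 and A19 and -0.068 for A12 and A56 in ethanol cells.

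**Figure D5:**
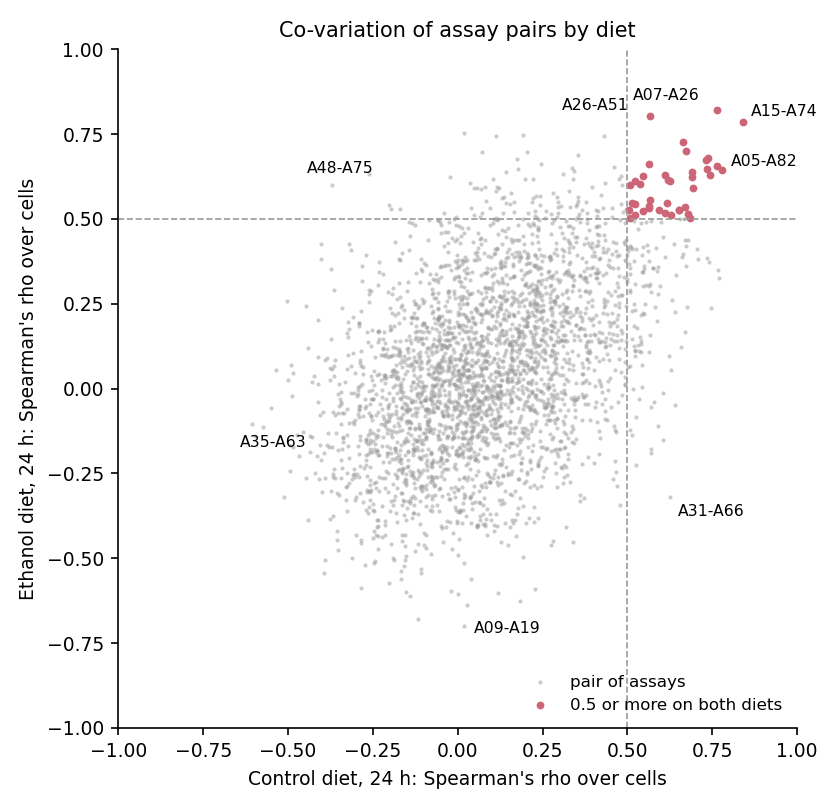
Spearman's rho over cells of each of the 3066 assay pairs in control cells (horizontal axis) and ethanol cells (vertical axis) at 24 h, with dashed lines at 0.5. The 40 coloured pairs reach 0.5 on both diets, and labelled pairs outside that corner are among the extremes of 1 diet or of the difference.

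Whole-cell profiles of the diets were partly intermixed, and the most similar cell was of the same diet more often than in an even mixture. Over the 28 common assays, the median Spearman's rho between cells was 0.64 within control, 0.68 within ethanol and 0.64 between the diets. After each assay's mean was removed it was 0.00, 0.03 and -0.03 in the same order. With the means left in, the most similar cell was of the same diet for 32 of 55 control cells (58.2%) and 30 of 54 ethanol cells (55.6%), where an even mixture would give 50% and 49.1%. With the means removed it was 58.2% and 61.1% over the common assays, and 60% and 68.5% over all assays. The most similar cell had the same status for the 5 jointly missing assays, lacking all of them or not, in 103 of 109 cells over the common assays, in 97 after the means were removed and in 90 with all assays, where an even mixture would give 68.

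The diet difference at 24 h did not resemble the one at 0 h. Over the 77 assays that could be compared at both times, Spearman's rho between the ethanol minus control differences was -0.05. The 2 differences share no cells but share the scaling assays. A77 differed by -1.02 at 0 h and by -1.52 at 24 h, A27 by -0.33 and -1.32, and A54 by 0.34 and 0.89, each in the same direction at both times. A59 had a difference of 0.29 at 0 h against -1.39 at 24 h. A46 went opposite ways, at 1.32 at 0 h, with means of -2.62 ± 2.80 (SD, n = 66) on the control and -1.30 ± 3.04 (SD, n = 52) on the ethanol diet, and at -1.30 at 24 h. A76 and A57 had too few cells with a value at 0 h. The difference between times was not tested for any assay.

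Some of the co-variation was present at 0 h as well. A15 and A74 had a rho of 0.76 (n = 69 cells) in control and 0.82 (n = 53 cells) in ethanol cells at 0 h. A07 and A26 had 0.37 (n = 61 cells) and 0.63 (n = 42 cells) there, A26 and A62 had 0.23 and 0.61, and A58 and A68 had 0.46 and 0.71. Of the 40 pairs shared at 24 h, 12 of the 39 that could be computed reached 0.5 in control cells at 0 h and 31 of 40 did so in ethanol cells. Their median rho at 0 h was 0.43 in control and 0.61 in ethanol cells, where all pairs had medians of 0.09 and 0.09.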

How the data were processed

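The authors deposited 1 Ct per assay and cell, a log2 quantity, as a table that is not normalized; per the labels, cDNA of single microdissected hepatocytes was pre-amplified for 22 cycles and measured with SYBR Green over 30 cycles. The sources used here state no instrument software, rule for a missing value or reference gene. Columns were matched to cells through the description in the labels.

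Relative levels used the 28 assays detected in 80% or more of cells in each of the 4 groups, with a missing value as Ct 30 in the median. At least 10 cells per diet were required for an assay and 20 for a pair. Limits were 1 log2 unit for levels, 20 points for shares, 0.5 for SDs and 0.5 for rho. The precision of a mean is set by the number of cells with a value, and reactions carry no molecule count. The calculation was tested on simulated data. Assays were named as the 2 largest differences in each direction for each measure, the 2 highest and 2 lowest levels, the 2 pairs or assays at each end, and assays known from earlier results (A76, A77, A18 and the 5 missing together). The assays and alternatives were chosen with earlier results of these data known. Alternatives changed the scaling, the mean, the missing-value rule, the cells included and the correlation measure. Cell type marker lists could not be applied without gene names. Python 3.11.15, pandas 2.3.3 and scipy 1.17.1 were used.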

Additional observations from a re-analysis of the deposited data

Results flagged for a closer look

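A46 had opposite differences between diets at the 2 times. Its mean relative level, ethanol minus control, was -1.30 at 24 h and 1.32 at 0 h. The difference between the times was not tested, since each group is 1 sample, and the cells of the diets overlapped at 24 h. The low ethanol values at 24 h lay mainly in cells numbered up to 36, where the highest was 0.03. Most ethanol values from cell 37 on were above 0.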

How the results depend on the processing

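No paired analysis was possible because each number in a cell's title only names that cell, and nothing links cells across diets. Levels at least 1 higher and lower in ethanol cells numbered 0 and 5 as reported. They numbered 12 and 1 without scaling, 2 and 3 with the 51 common assays, 12 and 16 with missing values at Ct 30, and 1 and 10 within cells lacking the 5 assays. The higher count was also 1 with every assay of the cell and with medians over cells. The median difference was 0.56 without scaling, 0.17 with the 51 common assays, -0.18 at Ct 30 and -0.14 within cells lacking the 5 assays. Of the level differences of the 7 named assays, each kept its sign under every alternative that gave a value, within -2.73 and 2.43.

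SDs at least 0.5 higher numbered 8 as reported, 35 with the 51 common assays, 33 at Ct 30, 3 with values above Ct 20 missing, 13 without and 4 within cells lacking the 5 assays, and 4 without the farthest cells, an alternative chosen after seeing the data. Those lower numbered 15 as reported, 23 without scaling and 7 with the 51 common assays. The SD difference changed sign for A06 with the 51 common assays (0.65), for A16 with quartiles (0.052) and at Ct 30 (0.43), and for A21 at Ct 30 (-0.011). Shares higher by 20 points numbered 1 as reported, 2 with values above Ct 20 missing, where A18 was not among them at 13.5 points, 3 without and 6 within cells lacking the 5 assays, where 1 was lower and A18 differed by -6.67.

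Pairs at 0.5 or more numbered 149 in control and 137 in ethanol cells as reported. They were 702 and 1023 without scaling, with medians of 0.31 and 0.38. In control cells they were 81 with every assay of the cell, 69 at Ct 30, 95 without cells above Ct 17 and 99 with the common-assay Ct partialled out. In ethanol cells they were 91 with the number of values partialled out. The rho of A09 and A19 in ethanol cells was 0.032 without scaling, and that of A31 and A66 in control cells was -0.029 at Ct 30. Pairs within the cells lacking all 5 assays could not be had, as none had 20 cells. Other causes of these shifts were not tested. The number of cells, and of assays with a value in few of them, limits each value.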
